A study of Mus musculus with 12 samples.

Results

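Transcripts of 10 genes known from the choroid plexus (Ttr, Prlr, Kl, Otx2, Slc4a5, Folr1, Clic6, Kcnj13, Enpp2 and Col8a1) were followed by brain region in RNA from sorted mouse astrocytes. They were chosen by gene symbol from the 55401 genes of the count table, with earlier results of these data known, and all 10 were found. The mice carried 2 alleles, CD51-Flp and Rosa-CAG-FSF-tdTomato, so that a Flp recombinase driven by CD51 (integrin alpha-v) removes a stop cassette and turns on tdTomato. Cortex and hippocampus were each split by flow cytometry into a class labelled CD51+ (tdTomato+ and GFP+) and a class labelled CD51- (tdTomato- and GFP+), both called astrocytes. Each of the 4 groups, cortex CD51+, cortex CD51-, hippocampus CD51+ and hippocampus CD51-, had 3 libraries, 12 in all. All came from that one mouse line, and no treatment is listed. The driver of GFP, the age and the sex of the mice, and whether animals were pooled, are not given in the sources used here.

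Found in the brain ventricles, the choroid plexus is a folded epithelium around a vascular core and secretes cerebrospinal fluid. Its cells move sodium, bicarbonate, chloride and water into the ventricle and carry hormones and vitamins from blood to fluid. Transthyretin, the carrier of thyroid hormone and retinol-binding protein, is its best known product. The plexus of the lateral ventricle lies against the medial edge of the hippocampus, whereas the cortical sheet does not border it.

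The mouse RefSeq promoter table (GRCm38.p6, the mm10 build) held 11 windows for 6 of the members, each from 250 bases before to 50 bases after an annotated start. The windows belonged to Kcnj13, Kl, Slc4a5, Otx2 (4 starts), Prlr (3 starts) and Col8a1. Each was searched on both strands for TAATCC, the core that OTX homeodomain proteins are known to recognise (GGATTA on the other strand), because Otx2 is itself a member. Of all 32851 windows in the table, 7.06% held it. Of the 11 member windows, 1 did, at one of the starts of Otx2. Its match is shown with flanking bases and the core in capitals, as chr14:48665303-48665332 on the minus strand. The stretch lies in annotated exon sequence, with the gene and strand of that exon not recorded, and begins upstream of that start. A match of letters is a description and was not tested as a binding site. Kl, Col8a1 and Kcnj13, each with a single RefSeq start, are shown beside it as members of different roles, a co-receptor, a collagen chain and a potassium channel. None of the 3 had the core. The stretches are the 250 bases before the start, chr5:150952357-150952606 on the plus strand for Kl, chr16:57754738-57754987 on the minus strand for Col8a1 and chr1:87394730-87394979 on the minus strand for Kcnj13. Over the whole window, G and C made up 67.3% of the bases for Kl, 60.3% for Col8a1 and 46.0% for Kcnj13, against a median of 52.7% over all windows.
Otx2 match: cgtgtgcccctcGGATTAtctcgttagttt
Kl upstream: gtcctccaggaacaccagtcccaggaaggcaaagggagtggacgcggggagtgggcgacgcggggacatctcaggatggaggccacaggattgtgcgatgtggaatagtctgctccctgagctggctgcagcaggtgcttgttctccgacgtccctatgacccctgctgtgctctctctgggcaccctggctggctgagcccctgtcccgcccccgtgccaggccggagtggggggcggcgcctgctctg
Col8a1 upstream: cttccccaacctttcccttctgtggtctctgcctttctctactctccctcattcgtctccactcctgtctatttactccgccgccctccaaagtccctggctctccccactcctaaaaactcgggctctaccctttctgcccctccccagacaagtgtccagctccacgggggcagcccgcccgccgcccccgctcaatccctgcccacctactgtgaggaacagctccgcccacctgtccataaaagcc
Kcnj13 upstream: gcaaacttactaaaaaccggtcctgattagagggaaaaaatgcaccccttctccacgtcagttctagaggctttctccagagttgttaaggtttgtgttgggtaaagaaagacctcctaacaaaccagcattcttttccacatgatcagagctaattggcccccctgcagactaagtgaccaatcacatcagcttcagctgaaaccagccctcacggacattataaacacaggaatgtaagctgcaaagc

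Total counts were 4351897 to 12847183 read pairs per library, and mitochondrial genes took 20.2% to 71.1% of them. Levels below are CPM, counts scaled to 1000000 per library after TMM scaling of the library sizes, which correct for such differences in composition, and 1 count was worth 0.0821 to 0.229 CPM. All 20 astrocyte markers had counts in all 12 libraries, but their sum was 54243 to 85965 CPM in the 6 CD51+ libraries and 6461 to 20136 CPM in the 6 CD51- libraries. The 13 oligodendrocyte markers summed to 1305 to 5041 CPM in the CD51+ libraries and to 6974 to 64093 CPM in the CD51- libraries. In the library names the titles CD51+ correspond to the letter G and the titles CD51- to GT, letters that might denote the opposite classes. That would turn the sign of any class difference, while region differences within a class would only change their class name. Separate animals are not stated for the replicates, and p-values therefore reflect only the spread among these libraries, which may be technical. In bulk RNA, fewer cells of a type and less RNA per cell cannot be told apart.

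Ttr, the gene of transthyretin (ENSMUSG00000061808.4, mm10 chromosome 18, 20665280 to 20674321, plus strand), was the most abundant member in the hippocampus. In CD51+ cells it stood at 53.1, 35.9 and 23.9 CPM in the cortical libraries and at 444, 1969 and 1945 CPM in the hippocampal ones. In CD51- cells it stood at 90.0, 2.16 and 431 CPM in cortex and at 2584, 5381 and 1215 CPM in hippocampus. All 6 hippocampal libraries lay above all 6 cortical ones, although cortex CD51- replicate 3, at 431 CPM, nearly reached hippocampus CD51+ replicate 1, at 444 CPM. Among genes outside the mitochondrial genome Ttr ranked 5 to 117 by count in the hippocampal libraries and 189 to 7090 in the cortical ones. The mean was 37.6 ± 14.6 CPM (SD, n = 3) in cortex CD51+ and 1453 ± 874 in hippocampus CD51+, a log2 difference of 5.27 ± 1.08 (SE; edgeR adjusted p = 0.0607). In CD51- cells the means were 174 ± 226 and 3060 ± 2124 CPM (SD, n = 3), a log2 difference of 4.13 ± 1.02 (SE; edgeR adjusted p = 0.125). Neither passed the threshold of 0.05 alone. The CD51+ difference was called in 11 of 22 alternatives, among them DESeq2 (adjusted p = 0.000214) and the fit of only the groups compared (adjusted p = 0.000302), and the CD51- difference in 5 of 22. Averaged over the classes, Ttr was higher in hippocampus by 4.70 ± 0.74 log2 units (SE; edgeR adjusted p = 0.00684). Without cortex CD51- replicate 3 the CD51- difference was 6.02 log2 units (edgeR adjusted p = 0.00152). The average was not called with limma-voom (adjusted p = 0.214) or with robust dispersion (adjusted p = 0.0812).

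Enpp2 encodes autotaxin, a secreted enzyme that makes lysophosphatidic acid, and is known from oligodendrocytes as well as from the choroid plexus (ENSMUSG00000022425.16, chromosome 15, 54838901 to 54952892, minus strand). Enpp2 and Ttr were the 2 members with counts in all 12 libraries. The CD51+ libraries held 52.2, 239 and 84.4 CPM in cortex and 394, 1005 and 1211 CPM in hippocampus. The CD51- libraries held 31.1, 36.5 and 548 CPM in cortex and 1565, 2449 and 628 CPM in hippocampus. Within each class the regions did not overlap. Across classes they did, since cortex CD51- replicate 3 at 548 CPM exceeded hippocampus CD51+ replicate 1 at 394 CPM. The log2 difference was 2.80 ± 0.88 (SE; edgeR adjusted p = 0.31) in CD51+ and 2.91 ± 0.88 (SE; edgeR adjusted p = 0.222) in CD51- cells. The average of 2.85 ± 0.62 (SE; edgeR adjusted p = 0.0599) did not pass the threshold, and it did in 12 of 21 alternatives, among them without cortex CD51- replicate 3 (4.11, adjusted p = 1.44e-05). That cortical library also had the highest sum of oligodendrocyte markers, 64093 CPM, against 33988 and 33274 CPM in the other cortex CD51- libraries. In hippocampus CD51- the sums were 38169, 25507 and 6974 CPM, in the order of the Enpp2 values above. They were 2863, 2865 and 2721 CPM in cortex CD51+ and 3081, 5041 and 1305 CPM in hippocampus CD51+. Taken gene by gene, the median log2 difference of these markers between hippocampus and cortex was 2.01 in CD51+ and -0.79 in CD51- cells. The part of oligodendrocyte RNA in the Enpp2 differences was not tested.

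**Figure D1:**
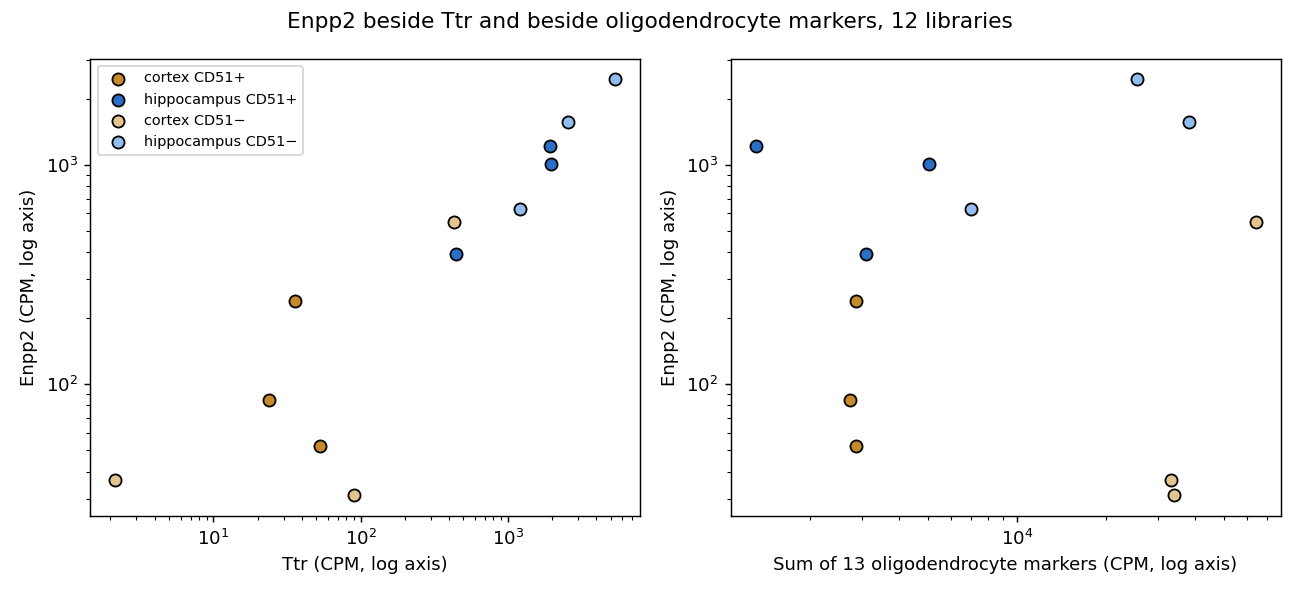
Enpp2 level of each of the 12 libraries in CPM (log axis) against the Ttr level and against the sum of the 13 oligodendrocyte markers (log axes), with points coloured by group. The hippocampal libraries lie at high Enpp2 and high Ttr over a wide range of oligodendrocyte signal, and cortex CD51- replicate 3, at 548 CPM of Enpp2, is the cortical library with the most of all 3.

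Prlr, Kl and Folr1 encode proteins that the plexus uses to take up or relay signals and a vitamin. Prlr, the prolactin receptor (ENSMUSG00000005268.20, chromosome 15, 10177238 to 10349180, plus strand), had no count in the 3 cortex CD51+ libraries and 7.34, 58.2 and 118 CPM in hippocampus CD51+. In CD51- cells it was at 34.3, 0.359 and 44.8 CPM in cortex and 196, 236 and 58.9 CPM in hippocampus. Both classes were thus separated by region without overlap, but the cortical CD51- libraries reached levels within the range of the hippocampal CD51+ ones. In CD51+ cells Prlr was at least 409-fold higher in hippocampus, computed against a floor of 3 counts over the cortical group, and was the one member to pass within a class (edgeR adjusted p = 0.0385). That call was lost when cortex CD51+ replicate 2 or 3 was left out (adjusted p = 0.0693 and 0.0744), with limma-voom (0.13) and with only the 2 groups in the fit (0.0858). In CD51- cells the log2 difference was 2.63 ± 1.23 (SE; edgeR adjusted p = 0.361). The average over classes passed (edgeR adjusted p = 0.0141), and did so in all 21 alternatives.

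Kl encodes klotho, a co-receptor for the hormone FGF23 that is shed into cerebrospinal fluid (ENSMUSG00000058488.7, chromosome 5, 150952607 to 150993817, plus strand). It too had no count in cortex CD51+, against 1.84, 16.1 and 30.5 CPM in hippocampus CD51+, at least 109-fold (edgeR adjusted p = 0.0711). In CD51- cells it was at 5.06, 55.7 and 5.40 CPM in cortex and 231, 130 and 20.9 CPM in hippocampus, a log2 difference of 2.53 ± 1.31 (SE; edgeR adjusted p = 0.43). These groups overlapped, because cortex CD51- replicate 2 exceeded hippocampus CD51- replicate 3. That cortical library held the most Kl of the cortex and the least Ttr of all 12 libraries. Averaged over classes Kl was higher in hippocampus (edgeR adjusted p = 0.0343). The call was lost with limma-voom (adjusted p = 0.0827) and when any 1 of 5 libraries was left out, namely cortex CD51+ replicates 2 and 3, hippocampus CD51+ replicate 3, and hippocampus CD51- replicates 1 and 2 (adjusted p = 0.0515 to 0.0774).

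Folr1, the folate receptor that carries folate across the epithelium (ENSMUSG00000001827.12, chromosome 7, 101858331 to 101870788, minus strand), carried the lowest mean per length in hippocampus CD51-, given with the order of the members below. It had 1 count in all of the cortex, in cortex CD51- replicate 3. The hippocampal libraries held 0, 33 and 13 counts in CD51+, or 0, 4.43 and 2.18 CPM, and 95, 29 and 2 counts in CD51-, or 7.80, 2.69 and 0.181 CPM. The lower bound was 16.1-fold in CD51+ (edgeR adjusted p = 0.35), and the ratio was 100 in CD51- with a 95% counting interval of 17.7 to 3992 (edgeR adjusted p = 0.343). Such intervals cover counting error only. The average did not pass (edgeR adjusted p = 0.107).

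Otx2 encodes the homeobox factor that specifies and maintains the choroid plexus (ENSMUSG00000021848.16, chromosome 14, 48657677 to 48673819, minus strand). It had no count in 5 of the 6 cortical libraries and stood at 20.1 CPM (138 counts) in cortex CD51- replicate 3. Its hippocampal levels were 17.9, 20.1 and 1.17 CPM in CD51+ and, in CD51-, 114, 86.9 and 7.97 CPM. So each hippocampal library held Otx2. The single cortical library had more than hippocampus CD51+ replicates 1 and 3 and hippocampus CD51- replicate 3, and about as much as hippocampus CD51+ replicate 2. It was at least 82.3-fold higher in hippocampal than in cortical CD51+ libraries, a difference that did not pass (edgeR adjusted p = 0.304), and in CD51- cells the log2 difference was 3.37 ± 1.97 (SE; edgeR adjusted p = 0.523). The average did not pass (edgeR adjusted p = 0.0873), and without cortex CD51- replicate 3 it did (adjusted p = 0.00499). Counting was unstranded, and 3.65% of the Otx2 exon bases are shared with the antisense gene Otx2os1, which had 68 counts over all 12 libraries.

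Slc4a5, Clic6 and Kcnj13 encode membrane proteins of ion transport. Slc4a5, a sodium bicarbonate cotransporter (ENSMUSG00000068323.12, chromosome 6, 83219828 to 83304945, plus strand), had no count in any cortical library. It was at 14, 12.6 and 19.8 CPM in hippocampus CD51+ and at 14, 32.7 and 8.78 CPM in hippocampus CD51-. Its hippocampal levels were thus the most even among the members, within 8.78 to 32.7 CPM. The lower bounds were 95.6-fold in CD51+ (edgeR adjusted p = 0.292) and 164-fold in CD51- cells (edgeR adjusted p = 0.189), and the average passed (edgeR adjusted p = 0.0343). This call was lost when any 1 of 7 libraries was left out, namely the 3 cortex CD51+ libraries, cortex CD51- replicates 1 and 2, hippocampus CD51+ replicate 3 and hippocampus CD51- replicate 2 (adjusted p = 0.0515 to 0.0877).

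Clic6, a member of the chloride intracellular channel family (ENSMUSG00000022949.9, chromosome 16, 92485736 to 92541243, plus strand), had 2 counts in the cortex, both in CD51+ replicate 2. The hippocampal libraries held 1.15, 3.62 and 44.2 CPM in CD51+ and, in CD51-, 157, 36.7 and 7.24 CPM. Levels within a class therefore ran over a wide range, with the regions still apart. The ratio was 155 in CD51+ with a 95% counting interval of 42.7 to 1290 (edgeR adjusted p = 0.304), and at least 632 in CD51- cells (edgeR adjusted p = 0.099). The average passed (edgeR adjusted p = 0.0208), and its call was lost without hippocampus CD51- replicate 1 (adjusted p = 0.0513).

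Kcnj13, the inward-rectifier potassium channel Kir7.1 (ENSMUSG00000079436.3, chromosome 1, 87386363 to 87394729, minus strand), was seen almost entirely in hippocampus CD51- cells. These libraries held 26.7, 1.95 and 3.08 CPM (325, 21 and 34 counts), the 3 hippocampus CD51+ libraries 1 count in all, and the cortex none. The lower bound in CD51- cells was 101-fold (edgeR adjusted p = 0.244), no fold is given in CD51+ cells because both groups were at or under the floor, and the average did not pass (edgeR adjusted p = 0.176). Of the Kcnj13 exon bases, 49.1% overlap exons of Gigyf2 on the opposite strand, which had 3408 counts over all libraries. Reads of the overlap cannot be told apart with unstranded counting, and Kcnj13 itself was at 0 in all 6 cortical libraries.

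Col8a1, a chain of the short-chain collagen VIII (ENSMUSG00000068196.5, chromosome 16, 57624258 to 57754737, minus strand), had no cortical count. Its hippocampal levels were 116, 27.8 and 88.8 CPM in CD51- and, in CD51+, 0.229, 0.134 and 5.53 CPM, where the first 2 values are 1 count each. It was thus counted in each hippocampal library and in no cortical one, and the hippocampal classes did not overlap. The lower bounds were 12.3-fold in CD51+ (edgeR adjusted p = 0.331) and 714-fold in CD51- cells (edgeR adjusted p = 0.0963). The average passed (edgeR adjusted p = 0.0235), and did so in all 21 alternatives.

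**Figure D2:**
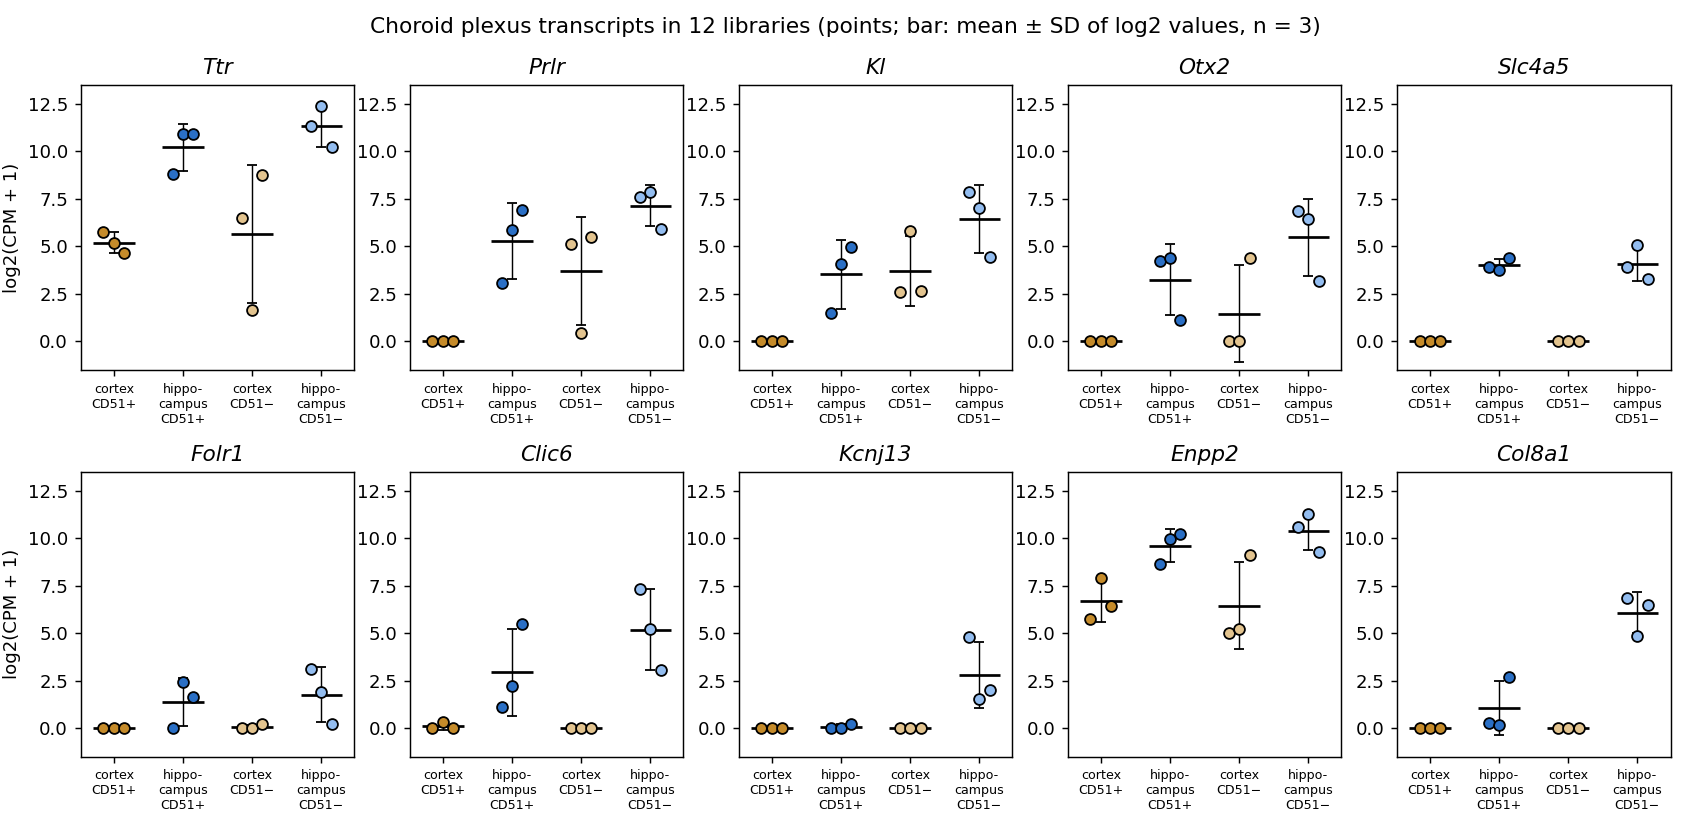
Level of each of the 10 genes in every library, 1 panel per gene, as log2(CPM + 1), with points for the 3 libraries of each group and lines at the group mean with SD. Ttr and Enpp2 reach every group, and Slc4a5, Kcnj13 and Col8a1 sit at 0 in all 6 cortical libraries.

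All 10 members passed the filter on low counts, with 12613 genes tested. It asked for at least 1.27 CPM, worth 10 counts at the median depth, in 3 libraries. Slc4a5, Folr1, Clic6, Kcnj13 and Col8a1 reached that level in no cortical library. They passed through hippocampal libraries alone and so had to differ, and counts that include them are a description. Otx2 reached it in 1 and Prlr in 2 cortical libraries, Kl in 3, and Ttr and Enpp2 in 6. Short of 3 libraries in cortex, Otx2 and Prlr also needed hippocampal libraries to pass, so their calls carry part of the same bias. Because all members were chosen with earlier results of these data known, the shares of all genes beside their calls are a description and no test. In CD51+ cells 1 of 10 members, Prlr, was called higher in hippocampus, where 0.0238% of all tested genes were. In CD51- cells edgeR called 0 members and 0% of all genes. There 8 members had an unadjusted p under 0.05, against 13.2% of all genes. DESeq2 and limma-voom called 4 members each, against 5.6% and 0.864% of all genes. Averaged over classes, 6 members were called higher (Ttr, Prlr, Kl, Slc4a5, Clic6 and Col8a1), against 0.159% of all genes, and 0 lower, against 0.0317%. Of these 6, Slc4a5, Clic6 and Col8a1 had passed the filter through hippocampal libraries alone, and Prlr had passed only with hippocampal libraries added to its 2 cortical ones. Libraries did not overlap, with hippocampus higher, for 8 members in CD51+ (7.54% of all genes) and 8 in CD51- cells (10.4%). These were the same genes for 6 members, Ttr, Prlr, Slc4a5, Clic6, Enpp2 and Col8a1. For 4 members (Ttr, Slc4a5, Clic6 and Col8a1) all 6 hippocampal libraries lay above all 6 cortical ones, against 0.793% of all genes. Having no count in any cortical library applied to 3 members and to 1.17% of all tested genes.

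**Figure D3:**
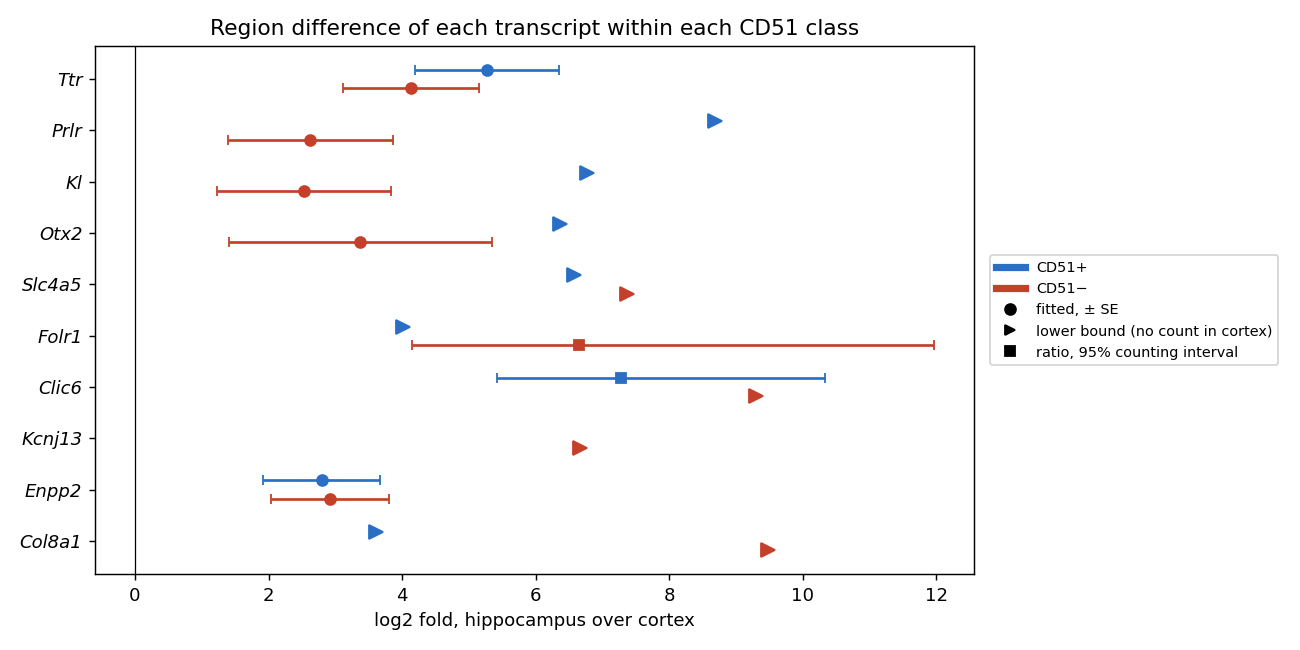
Log2 fold of hippocampus over cortex for each gene in CD51+ and CD51- cells, with circles for fitted values and their SE, triangles for lower bounds where the cortex had no count, and squares for ratios with 95% counting intervals. All points lie to the right of 0, and Kcnj13 has no CD51+ point because both groups were at or under the floor.

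The number of members seen was also counted in each library. The cortex CD51+ libraries held 2, 3 and 2 members with at least 1 count and the cortex CD51- libraries 4, 4 and 6. The hippocampal libraries held 8, 9 and 10 in CD51+ and all 10 in each CD51- library. The highest cortical number, 6, was again in cortex CD51- replicate 3. Over all genes, 12113 to 12294 had a count in the cortex CD51+ libraries and 12319 to 13767 in the cortex CD51- ones. In hippocampus these numbers were 12894 to 13143 in CD51+ and 14907 to 15425 in CD51-, so more genes of any kind were seen there.

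The region difference itself was then compared between the classes. EdgeR called 0 members and 0% of all genes for this interaction. An unadjusted p under 0.05 was reached by 2 of the 10 members and 12.6% of all genes. DESeq2 called 3 members (Prlr, Kl and Otx2) and 4.14% of all genes, and limma-voom 0 of either. The lowest edgeR adjusted p was 0.14 for Prlr, followed by 0.197 for Kl, the genes with no count in cortex CD51+ and counts in each cortex CD51- library. For Ttr the difference was 1.14 ± 1.27 log2 units (SE; edgeR adjusted p = 0.791) and for Enpp2 -0.12 ± 1.16 (SE; edgeR adjusted p = 1). It could not be estimated for Slc4a5, Kcnj13 and Col8a1, which had no cortical count.

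Between the CD51 classes, 3 members were lower in the CD51+ class in cortex, where 6.27% of all genes were called lower. Prlr was at least 165-fold lower (edgeR adjusted p = 0.00187), Kl at least 129-fold (edgeR adjusted p = 0.00287) and Otx2 at least 31.8-fold (edgeR adjusted p = 0.0488). The Otx2 value rests on cortex CD51- replicate 3, without which both groups are at 0. The Otx2 call was also lost when any 1 of the 3 cortex CD51+ libraries or of hippocampus CD51- replicates 1 and 2 was left out (adjusted p = 0.0558 to 0.108), with limma-voom (0.606) and with upper-quartile factors (0.0527). The Ttr difference was -2.21 ± 0.94 log2 units (SE; edgeR adjusted p = 0.109), with overlapping libraries, and it passed without cortex CD51- replicate 2 (-2.78, adjusted p = 0.0058). In hippocampus edgeR called 0 members and 2.7% of all genes lower. There 3 of the 10 members had an unadjusted p under 0.05, against 19.1% of all genes. DESeq2 called 1 (Col8a1), against 11.6% of all genes, and limma-voom 2 (Kcnj13 and Col8a1), against 7.02%. Kcnj13 and Col8a1 were the 2 members whose hippocampal classes did not overlap with CD51+ lower (16.7% of all genes), with a ratio of 199 in Kcnj13 (95% counting interval 35.5 to 7873, higher in CD51-) and a log2 difference of -5.29 ± 1.86 in Col8a1 (SE; edgeR adjusted p = 0.128). The astrocyte and oligodendrocyte sums above moved with the class in both regions, and their part in these class differences was not tested.

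Levels of different genes were compared per length, as FPKM, the CPM divided by the exon length in kilobases. In hippocampus CD51- the order was Ttr at 2580 FPKM, Enpp2 at 268, Clic6 at 17.1, Otx2 at 16.5, Kl at 13.6, Prlr at 10.7, Col8a1 at 9.89, Kcnj13 at 8.32, Slc4a5 at 3.18 and Folr1 at 1.55 (means, n = 3). In hippocampus CD51+ it was Ttr at 1225 FPKM, Enpp2 at 150, Clic6 at 4.17, Prlr at 3.98, Otx2 at 3.09, Slc4a5 at 2.66, Kl at 1.73, Folr1 at 0.959, Col8a1 at 0.251 and Kcnj13 at 0.0440 (means, n = 3). Ttr exceeded Enpp2, and Enpp2 exceeded Clic6, in 6 of 6 hippocampal libraries. Below these, no pair of neighbours of the CD51- order kept its order in all 6 libraries, and Otx2, Kl, Col8a1 and Kcnj13 stood lower in the CD51+ order.

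Enpp2 also kept the steadiest proportion to Ttr. Per length it was 18.2%, 10.5% and 12.8% of Ttr in the hippocampus CD51+ libraries and 12.4%, 9.34% and 10.6% in the CD51- libraries. In the cortex the same proportion was 20.2%, 137% and 72.4% in CD51+ and 7.10%, 348% and 26.1% in CD51-. Prlr ranged over 0.128% to 0.585% of Ttr per length in hippocampus and Slc4a5 over 0.110% to 0.644%. Wider ranges were found for Kl (0.0526% to 1.14%), Clic6 (0.0557% to 1.84%), Otx2 (0.0169% to 1.24%) and Col8a1 (0.00103% to 1.11%). Folr1 and Kcnj13 reached 0.156% and 0.965% and were at 0 in at least 1 hippocampal library.

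**Figure D4:**
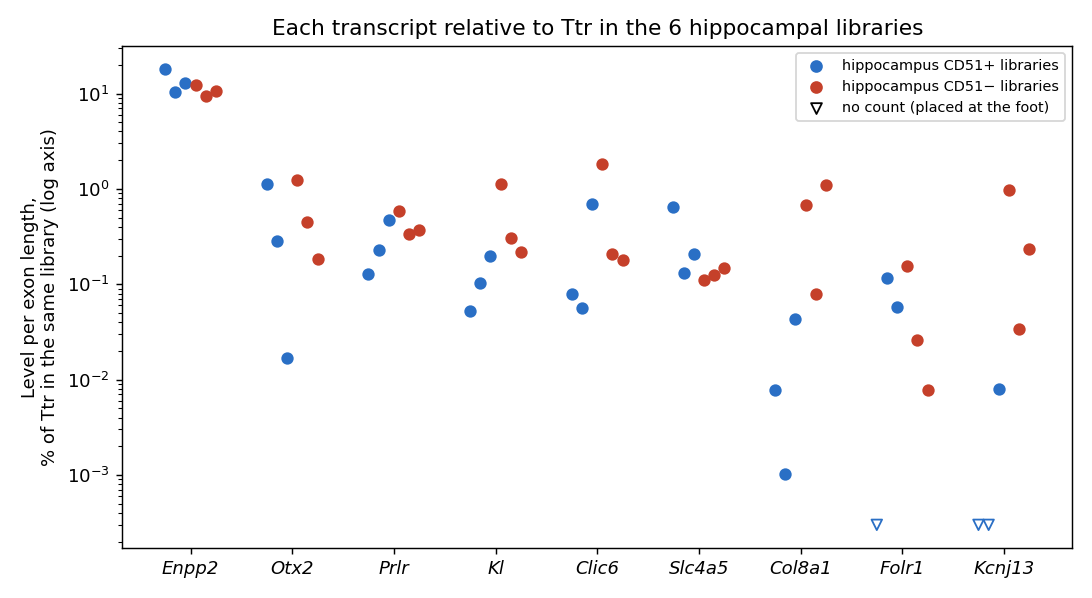
Level of 9 genes as a percentage of Ttr per length in each of the 6 hippocampal libraries (log axis), with values of 0 drawn apart. Enpp2 stays between 9.34% and 18.2%, while the others spread over wider ranges.

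The genes whose log2(CPM + 1) over the 12 libraries was most like that of Ttr, among 12164 tested genes with at least 5 CPM in 1 library, included 2 members. These were Enpp2 (Pearson r = 0.902) and Prlr (0.893), ranked 2 and 3. The other places among the first 8 went to Pcp4l1 (0.906), Gng10 (0.876), the axonemal dynein gene Dnah12 (0.874), Commd6 (0.870), Rbm41 (0.868) and Kmt2b (0.866). The remaining members followed with r = 0.858 for Slc4a5, 0.806 for Otx2, 0.780 for Clic6, 0.729 for Folr1, 0.658 for Col8a1, 0.523 for Kl and 0.513 for Kcnj13. These values are descriptions over libraries that share their regions, classes and scaling. Pcp4l1 was at 0 in cortex CD51+ and at mean levels of 3.55 CPM in cortex CD51-, 16.1 CPM in hippocampus CD51+ and 41.7 CPM in hippocampus CD51-.

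A list of 42 other genes known from choroid plexus epithelium was examined beside the members. Of these, 26 were tested, and 2 were called higher in hippocampus in the average over classes (0.159% of all genes) and 0 lower (0.0317%). The median log2 fold change of the 26 was 4.30 (3.83 with genes of a zero group at their bound), against 0.16 (0.14) over all tested genes. Some of the 26, Prr32 and Slc29a4 among them, had no cortical count. They passed the filter through hippocampal libraries alone and so had to differ, and values that include them are a description. F5, coagulation factor V, was at 5.51 ± 4.73 and 1.54 ± 2.54 CPM in cortex CD51+ and CD51- and at 114 ± 86.2 and 138 ± 99.8 CPM in hippocampus (SD, n = 3; 5.40 ± 1.06 log2 units, SE; edgeR adjusted p = 0.0322). Htr2c, a serotonin receptor abundant in this epithelium, was at 3.86, 0 and 0 CPM in cortex CD51+ and at 0 in cortex CD51-, so it also needed hippocampal libraries to pass the filter. The hippocampal levels were 1.38, 6.31 and 27.0 CPM in CD51+ and, in CD51-, 34.1, 216 and 9.51 CPM (edgeR adjusted p of the average 0.0497). Next came Prr32 (edgeR adjusted p = 0.0644) and the monoamine transporter Slc29a4 (edgeR adjusted p = 0.0911), both with no cortical count.

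Of all 42 genes, 35 had a higher mean in hippocampus than in cortex. No cortical count was found for 19, which include 2 (Cldn3 and Slc16a8) with no count in any library. Shares over all genes, tested or not, were not taken for these counts, which are a description. Aqp1, the apical water channel of the plexus, was seen in 1 library, hippocampus CD51+ replicate 3, at 11.6 CPM. The number of the 42 with at least 1 count was 10, 10 and 12 in cortex CD51+, 13, 10 and 17 in cortex CD51-, 23, 27 and 26 in hippocampus CD51+ and 35, 33 and 29 in hippocampus CD51-, beside the numbers of all genes given above. Their summed level was 389 to 741 CPM in the CD51+ and 101 to 316 CPM in the CD51- libraries of the cortex, and 738 to 1097 and 419 to 1204 CPM in those of the hippocampus. Trpm3, a cation channel also known from astrocytes, was part of these sums. In the CD51+ libraries it stood at 448 ± 126 CPM of a mean sum of 572 CPM in cortex and at 549 ± 120 of 904 CPM in hippocampus. In the CD51- libraries it stood at 60.7 ± 86.3 of 204 CPM and at 187 ± 96.7 of 926 CPM (SD, n = 3). The part of choroid plexus cells in the region differences of the members was not tested.

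**Figure D5:**
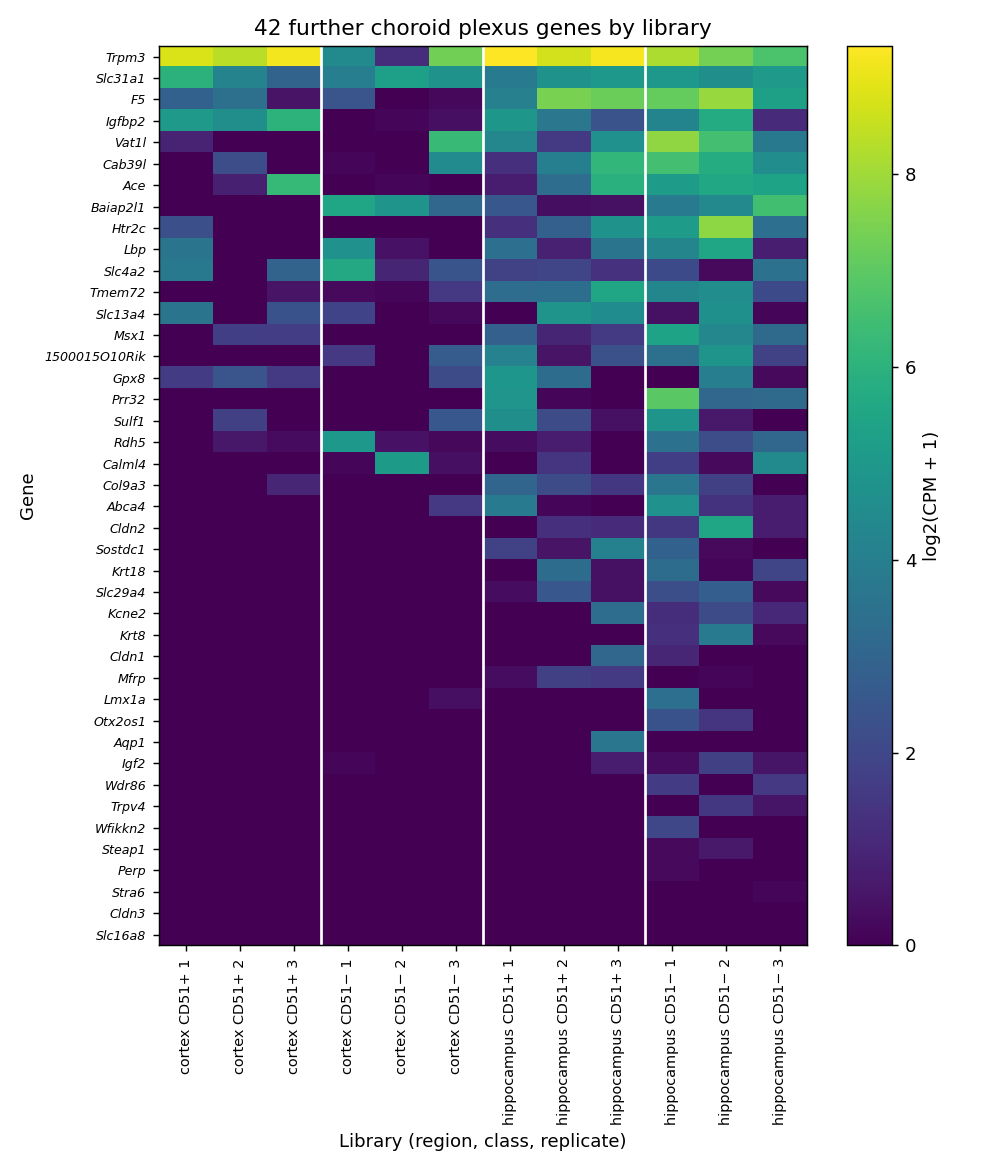
Level of the 42 further choroid plexus genes (rows) in the 12 libraries (columns, 3 per group), as log2(CPM + 1) on a colour scale from 0 up. The lower rows are dark in cortex and partly filled in hippocampus, where each library held 23 to 35 of the genes against 10 to 17 in cortex.

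A list of 39 partners of the members (thyroid hormone action, prolactin and klotho signalling, bicarbonate, chloride and potassium transport, folate carriers, and lysophosphatidate receptors) was not called by region. Of the 34 tested, edgeR called 0 in the average and 6 had an unadjusted p under 0.05, against 15.1% of all genes. DESeq2 called 2 of them and 5.73% of all genes, and limma-voom 0 of them and 0.42% of all genes. Their median log2 difference was 0.05. The reduced folate carrier Slc19a1 had -4.93 ± 1.85 log2 units (SE; edgeR adjusted p = 0.199), the bicarbonate transporter Slc4a10 4.29 ± 1.64 (SE; adjusted p = 0.204) and the klotho relative Klb -4.99 ± 2.02 (SE; adjusted p = 0.228).

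Markers of the ependyma, the ciliated lining that adjoins the plexus, were not called by edgeR either. Of 17 genes 11 were tested, 0 were called, and 6 had an unadjusted p under 0.05, against 15.1% of all genes. DESeq2 called 4 of the 11, against 5.73% of all genes, and limma-voom 2, against 0.42%. The median log2 difference of the tested ependymal genes was 4.53 (2.85 with bounds), and 14 of the 17 had a higher hippocampal mean. Dnah12 was at 16.5 ± 12.2 and 31.4 ± 11.4 CPM in hippocampus CD51+ and CD51-, against 0 and 0.759 ± 1.32 CPM in cortex (SD, n = 3; edgeR adjusted p = 0.0718). Hydin, Ak7 and Ccdc153, other genes of motile cilia, followed (edgeR adjusted p = 0.0721, 0.093 and 0.0944). Hydin had no cortical count and Ccdc153 no more than 3 counts in either cortical group, so both passed the filter through hippocampal libraries alone. Dnah12 and Ak7 had counts in fewer than 3 cortical libraries and also needed hippocampal ones to pass. The summed level of the 17 was 19.6 to 94.5 CPM in the CD51+ and 21.0 to 175 CPM in the CD51- libraries of the cortex, and 43.8 to 187 and 65.8 to 346 CPM in those of the hippocampus, and 6 of the 17 had no cortical count.

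Markers of the other cell types were not called by region with edgeR. This held for 20 astrocyte, 13 oligodendrocyte, 14 microglial, 5 fibroblast, 6 endothelial, 4 mural and 8 neuronal genes tested. An unadjusted p under 0.05 was reached by 1, 1, 3, 1, 2, 1 and 1 of them, DESeq2 called 1, 1, 0, 0, 1, 1 and 0, and limma-voom 0 of each. Over all genes these shares were 15.1%, 5.73% and 0.42%. The astrocyte median was 0.10 log2 units and the oligodendrocyte median 0.68, against 0.16 over all genes. By class, the oligodendrocyte median was 2.01 in CD51+ and -0.79 in CD51- cells, and the astrocyte median -0.30 and 0.48. Over all genes it was 0 and 0.12. Libraries did not overlap, with hippocampus higher, for 7 of the 13 oligodendrocyte markers in CD51+ (7.54% of all genes) and 0 in CD51- cells (10.4%). The intermediate filament gene Gfap had the lowest p among astrocyte markers (3.21 ± 0.78 log2 units, SE; edgeR adjusted p = 0.0746). The 12 fibroblast markers, a cell type of the choroid plexus core, summed to 8.69 to 56.0 CPM over all 12 libraries, and their tested genes had a median of 0.76 log2 units.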

How the data were processed

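The deposited values are raw counts per gene. Per the file headers, featureCounts 2.0.4 counted read pairs over GENCODE vM25 exons, unstranded, keeping primary alignments and dropping pairs that span chromosomes. The submitters' processing notes name STAR, DESeq2 1.40.2 and the mm10 build. Exon overlaps and gene lengths came from the same headers and columns, and 55141 of 55401 gene IDs matched a symbol in the reference name table.

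All 12 libraries entered 1 fit of edgeR 4.0.16 (R 4.3.3) with 4 group levels, TMM factors, filterByExpr (minimum count 10, minimum total 15; 12613 genes kept), the quasi-likelihood F test with robust off and Benjamini-Hochberg adjustment at 0.05. SE is the absolute log2 fold change over the square root of F. The common dispersion was 1.64, a coefficient of variation of 1.28 between libraries. Against a group with no count, folds are lower bounds from a floor of 3 counts over the group. With 1 to 3 counts they are ratios with exact 95% counting intervals. FPKM is CPM per kilobase of exon. The scripts were tested on simulated data.

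The members and gene lists were chosen with earlier results of these data known. Beside the members, text names up to 4 genes of a list by p in the averaged region contrast, and the 8 genes most like Ttr. One gene that this rule names is not reported here. Aqp1, Cldn3, Slc16a8, Trpm3 and the overlapping genes were named after their values were seen. Alternatives were DESeq2 1.42.0, limma-voom (limma 3.58.1), RLE and upper-quartile factors, no filter, 1 CPM in 3 libraries, robust dispersion, mitochondrial genes left out, only the groups compared, a replicate block and each library left out. Figures used matplotlib 3.10.9.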

Additional observations from a re-analysis of the deposited data

How the results depend on the processing

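No region difference of a member changed sign in any alternative, but the counts of calls moved. For CD51+ cells, 5 genes and 1 member were called by edgeR as described, against 488 and 7 with DESeq2, 2 and 0 with limma-voom, 97 and 5 without a filter, 20 and 2 with robust dispersion, 3 and 1 with only the groups compared, and 0 and 0 with the replicate block. For CD51- cells, 0 genes and 0 members became 706 and 4 with DESeq2, 109 and 4 with limma-voom, 112 and 4 without a filter, and 19 and 2 with robust dispersion. For the average, 24 genes became 723, 53, 292 and 112 in that order, with 8, 4, 8 and 5 members against 6. The interaction gave 522 genes and 3 members with DESeq2, 146 and 1 without a filter and 1 and 0 with robust dispersion, against 0 and 0. Between classes in cortex, 1428 genes became 3219 with DESeq2 and 2164 with limma-voom, and 3 members became 1 with only the groups compared. In hippocampus 418 genes became 1457, 885 and, without a filter, 636, and 0 members became 1 (DESeq2), 2 (limma-voom) and 1 (only the groups compared). The causes were not tested.

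With 1 library left out, calls ranged from 2 to 35 genes and 0 to 4 members in CD51+ cells, 0 to 68 and 0 to 4 in CD51- cells, 11 to 69 and 4 to 8 in the average, 0 to 42 and 0 to 0 for the interaction, 879 to 1507 and 2 to 4 between classes in cortex, and 198 to 559 and 0 to 0 in hippocampus. The highest region counts (35, 68 and 69 genes) came without cortex CD51- replicate 3, and the lowest in the average (11) without hippocampus CD51- replicate 2. Leaving out a library also changes the filter, so more genes are tested.

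Values between classes that changed sign were Enpp2 in cortex, 0.62 with limma-voom and 1.83 without cortex CD51- replicate 3, and in hippocampus Slc4a5, 0.45 without CD51- replicate 2, and Folr1, 0.62 without CD51- replicate 1. Over all alternatives these ranged from -1.59 to 1.83, -0.61 to 0.45 and -1.69 to 0.62. None was called. Compared with the main fit, limma-voom, which used the same TMM factors, moved the median of all genes by 0.26 log2 units in CD51- cells and 0.15 in the average. Upper-quartile factors in place of TMM moved the hippocampal class median by 0.23.

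Same-numbered libraries did not deviate together (correlations of -0.052 to 0.0262 over 18 pairs, against -0.0414 to 0.0613 over 36 pairs of other numbers). No pairing by the titles' numbers was thus seen. Such correlations cannot exclude that same-numbered libraries share animals, which the labels do not state. With the replicate block the average had 28 genes and 7 members, CD51- cells and the interaction 0. The block also took away the calls of Prlr in CD51+ cells (adjusted p = 0.0579) and of Otx2 between classes in cortex (0.144). Depth sets the lowest level that could be seen, 0.0821 to 0.229 CPM for 1 count. Folr1 and Kcnj13 were called in 0 of 21 alternatives of the average, and the part of depth in that was not tested.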

Other observations

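In the average over classes 24 genes were called by region, 20 higher in hippocampus and 4 lower. Of these, 6 were members, 2 were on the list of further choroid plexus genes and 16 were on neither. These 16 were outside the rule for naming and were chosen after their values were seen.

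Among the 12 higher ones, Slit2, a secreted guidance cue, had the lowest adjusted p (0.00229), with 79.1 ± 51.8 and 34.3 ± 24.4 CPM in hippocampus CD51+ and CD51- against 0 and 0.0486 ± 0.0842 CPM in cortex (SD, n = 3). Rsph4a, a radial spoke protein of motile cilia, had no cortical count and was at 15.4 ± 14.4 and 68.4 ± 15.9 CPM in hippocampus (edgeR adjusted p = 0.00684). Cfap44, another gene of motile cilia, was at 29.0 ± 13.6 and 79.7 ± 73.4 CPM in hippocampus, against 0 and 5.49 ± 4.57 CPM in cortex (edgeR adjusted p = 0.0208). Car12, a carbonic anhydrase, had no cortical count and was at 15.8 ± 6.93 and 15.8 ± 13.2 CPM (edgeR adjusted p = 0.0497). The small matrix proteoglycan Bgn was at 47.7 ± 13.3 and 21.9 ± 26.6 CPM, against 0 and 0.237 ± 0.312 CPM in cortex (edgeR adjusted p = 0.0208). Slit2, Rsph4a, Car12 and Bgn stayed under the filter level of 1.27 CPM in every cortical library. They passed the filter through hippocampal libraries alone and so had to differ, and their p-values are a description.

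The 4 lower genes were Chrdl1, Csf3r, Zfp629 and Runx1. Chrdl1, a secreted BMP antagonist made by astrocytes, was at 590 ± 89.6 and 94.2 ± 119.8 CPM in cortex CD51+ and CD51- and at 33.5 ± 7.75 and 5.39 ± 5.21 CPM in hippocampus (SD, n = 3; -4.13 log2 units, edgeR adjusted p = 0.0208).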
